A study of Xenopus laevis with 9 samples.

Results

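The insulin-like growth factor axis was followed in XLK-WG cells, a line from the kidney of the frog Xenopus laevis, through every probe set whose gene symbol is igf1r, igf2r, insr, igf1, igf2, igf3, irs1 or irs2 or starts with igfbp. This frog has a doubled genome in which a gene often persists as a long (.L) and a short (.S) chromosome copy, and that suffix was ignored in the match. The rule found 11 of the 15491 probe sets, and they stand for 7 genes: the receptors igf1r.S and insr.L, the ligands igf2.S and igf3.L, the binding proteins igfbp1.L and igfbp5.L, and the adaptor irs1.L. The gene igf1r.S was chosen by its higher signal with FICZ than with TCDD, so its values in that comparison are given as a description with no test. Of the 11 probe sets, 9 had a mean signal above the 25th percentile of all probe sets (log2 4.88) and were tested, while igf3.L and igfbp5.L lay under it. The RefSeq gene table for this species lists 20 genes that fit the rule, and the other 13, among them igf1r.L, igf1.S, igf2r.L and insr.S, had no named probe set here.

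The cells had been exposed for 3 h to 100 nM FICZ (3 arrays), to 100 nM TCDD (3 arrays) or to the vehicle DMSO alone (3 arrays). All groups received 0.25% DMSO and were kept in medium with 20% fetal bovine serum, which itself brings growth factors to the cells. FICZ, a photoproduct of tryptophan, and TCDD, a dioxin, both activate AHR, the aryl hydrocarbon receptor, which switches on cytochrome P450 genes, and the series asks how a frog cell line responds to each. The labels call the replicates biological, and all come from 1 cell line.

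Insulin-like growth factors are secreted proteins that bind the IGF-1 receptor, a tyrosine kinase on the cell surface closely related to the insulin receptor. The activated receptor phosphorylates adaptors such as IRS1, which pass the signal to the PI3K-AKT and RAS-MAPK pathways and so promote growth and survival. Secreted IGF binding proteins hold the ligands in the fluid outside the cell and set how much reaches the receptor. In mammalian kidney the axis is known for its part in growth and in filtration.

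Over all arrays, medians before normalization lay between 6.67 and 6.87 on the log2 scale. DMSO replicate 2 stood apart and held 22.6% of the variation within groups, against 4.89% to 14.1% on each of the other 8 arrays. FICZ replicate 2 also stood apart, with the lowest median (6.67) and correlations with the other arrays over all probe sets of only 0.970 to 0.9762, lower than those of DMSO replicate 2 with each of the 7 arrays they share. The AHR target cyp1a1.L rose 28.3-fold with FICZ (limma, adjusted p = 3.2e-08) and 8.62-fold with TCDD (limma, adjusted p = 1.1e-05) against DMSO. Of 17 kidney epithelium markers, 9 had a probe set and 6 lay above the filter level. Of these krt19.S had a mean log2 signal of 12.15, while aqp2, aqp3, cldn4, pax2 and pax8 lay at only 4.96 to 6.10. The markers cdh1, epcam and lhx1 lay under the filter level. Of 6 fibroblast and mesenchyme markers with a probe set 4 lay above it, with vim.L at 13.13, and none of 4 hepatocyte markers did. Microarrays have no sequencing depth, and the small number of arrays, 3 a group, limits the precision.

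The IGF-1 receptor gene igf1r.S was higher with FICZ, and no change with TCDD was detected. In cells with FICZ the signal of its 3 probe sets was 1.84 to 2.14 times that in DMSO cells. On each probe set every FICZ array lay above every DMSO array. Every FICZ array also lay above every TCDD array, which is the contrast that chose the gene. Groups did not overlap, in either direction, for 12.2% of all tested probe sets with FICZ against DMSO. With FICZ against TCDD this share was 10.3%. In the comparison with DMSO 1 of the 3 probe sets passed the test, and the other 2 missed it with adjusted p values of 0.0503 and 0.0725 in limma. Over all tested probe sets 0.603% passed in this comparison. The igf1r.S probe set that passed, Xl.269.1.S2_x_at, is of a kind that may also bind other transcripts. No other member of the axis passed the test in either comparison with DMSO.

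The 3 igf1r.S probe sets, Xl.269.1.S1_at, Xl.269.1.S2_at and Xl.269.1.S2_x_at, share the record number 269.1 in their names. They are readings of 1 gene in the same RNA and not independent evidence. Probe sequences were not used, so whether they read the same stretch of the transcript is not known. The ending _x marks probes that may also bind other transcripts. The levels of the 3 probe sets cannot be set against one another, since each has its own brightness. Their changes are compared below, but a difference in change between probe sets need not be one in the transcript.

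On Xl.269.1.S1_at the log2 signal was 8.16, 8.72 and 7.97 on the FICZ arrays, 7.05, 7.01 and 6.93 on the TCDD arrays, and 6.95, 7.79 and 6.81 on the DMSO arrays. The FICZ arrays lay above all others, and DMSO replicate 2 lay closest to them. The group means were 8.28 ± 0.39 with FICZ, 6.99 ± 0.06 with TCDD and 7.18 ± 0.53 with DMSO (SD, n = 3 each). The log2 change with FICZ against DMSO was 1.10 (standard error 0.23, 95% interval 0.60 to 1.59), with an adjusted p of 0.0503 in limma, which does not pass the threshold of 0.05.

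On Xl.269.1.S2_at the log2 signal was 8.53, 8.90 and 8.57 with FICZ, 7.87, 7.46 and 7.72 with TCDD, and 8.07, 7.98 and 7.11 with DMSO. Again the FICZ arrays did not overlap the rest, and here DMSO replicate 3 was the low one. The means were 8.67 ± 0.20 with FICZ, 7.68 ± 0.20 with TCDD and 7.72 ± 0.53 with DMSO (SD, n = 3 each). The log2 change with FICZ against DMSO was 0.95 (standard error 0.21, 95% interval 0.49 to 1.40; limma, adjusted p = 0.0725).

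On Xl.269.1.S2_x_at the log2 signal was 8.71, 8.95 and 8.27 with FICZ, 7.78, 7.65 and 7.62 with TCDD, and 7.68, 7.89 and 7.72 with DMSO. The TCDD and DMSO arrays lay within a narrow band and all FICZ arrays above it. The means were 8.64 ± 0.34 with FICZ, 7.68 ± 0.08 with TCDD and 7.76 ± 0.11 with DMSO (SD, n = 3 each). This probe set rose by 0.88 with FICZ against DMSO (standard error 0.15, 95% interval 0.55 to 1.20; limma, adjusted p = 0.0141) and was the one that passed. The call ended when any of 4 arrays was left out, with adjusted p values in limma of 0.114 without FICZ replicate 1, 0.109 without FICZ replicate 2, 0.0654 without DMSO replicate 1 and 0.0556 without DMSO replicate 3. Without FICZ replicate 2, the highest array on all 3 igf1r.S probe sets, the changes were 0.88 for S1, 0.83 for S2 and 0.72 for S2_x, and none passed (limma, adjusted p = 0.298, 0.422 and 0.109). Without DMSO replicate 2, on which the S1 probe set was high, that probe set passed as well (1.40; limma, adjusted p = 0.00198).

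**Figure D1:**
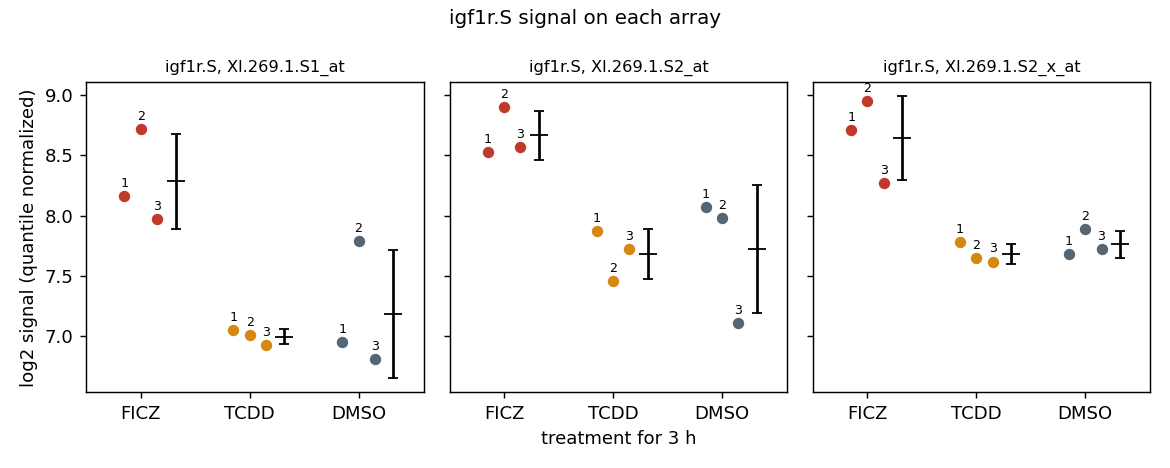
Log2 signal (vertical axis, quantile normalized) of the 3 igf1r.S probe sets on each of the 9 arrays, by treatment. Numbered points are replicates, and the bars beside them give the group mean ± SD (n = 3). In each panel the 3 FICZ points lie above every TCDD and DMSO point, and FICZ replicate 2 is the highest of them.

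Over all 11618 tested probe sets, 0.603% passed in the comparison of FICZ with DMSO, 0.525% higher and 0.0775% lower, and 12.2% had groups that did not overlap. All 3 igf1r.S probe sets had groups that did not overlap. The comparison with DMSO shares its FICZ arrays with the contrast by which the gene was chosen, so its p values are not independent of that choice.

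With TCDD the log2 changes against DMSO were -0.19 (95% interval -0.68 to 0.30), -0.04 (-0.49 to 0.42) and -0.08 (-0.40 to 0.24) for the S1, S2 and S2_x probe sets, with adjusted p values in limma of 0.969, 0.992 and 0.975. The intervals therefore leave room for a change either way, the lowest bound being -0.68 on S1 and the highest 0.42 on S2. Of all tested probe sets 0.0258% passed in this comparison. The comparisons of the ligands with DMSO share the DMSO arrays.

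Set directly against TCDD, FICZ cells had an igf1r.S signal higher by 1.29, 0.98 and 0.96 on the log2 scale for the S1, S2 and S2_x probe sets, which is 2.44, 1.97 and 1.94 times. As the mean of the 3 probe sets the signal was 8.46, 8.85 and 8.27 on the FICZ arrays and 7.57, 7.37 and 7.42 on the TCDD arrays, against 7.57, 7.89 and 7.21 on the DMSO arrays. The group means were 8.53 ± 0.30 with FICZ and 7.45 ± 0.10 with TCDD, against 7.56 ± 0.34 with DMSO (SD, n = 3 each). FICZ ranked highest and stood clear of both, while TCDD ranked below DMSO by less than the spread among DMSO arrays. Over all tested probe sets 0.207% passed in this comparison, and no call is given for igf1r.S because the same contrast chose it.

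The changes of the 3 probe sets were compared with each other, against DMSO and against TCDD. The change with FICZ against DMSO differed between them by 0.15 (S1 minus S2, standard error 0.32), 0.22 (S1 minus S2_x, 0.27) and 0.07 (S2 minus S2_x, 0.33), each less than its standard error. These standard errors were larger than those against TCDD, so they do not show that the readings were closer against DMSO. Against TCDD the S1 probe set changed by 0.33 more than S2_x (standard error 0.10) and by 0.31 more than S2 (0.17), while S2 and S2_x differed by 0.02 (0.17). Across the 9 arrays the Pearson correlation was 0.88 for S1 with S2, 0.94 for S1 with S2_x and 0.85 for S2 with S2_x. With the group means taken out these were 0.57, 0.74 and 0.34. The probe sets share arrays, RNA and record number, so these values describe how the readings went together and carry no p.

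An endothelial marker, pecam1.L, was higher with FICZ as igf1r.S was, by 1.35 on the log2 scale against DMSO (2.55-fold; limma, adjusted p = 1.0e-04) and by 1.03 against TCDD. Of 6 endothelial markers 2 had a probe set, pecam1.L at a mean log2 signal of 7.16 and tek under the filter level, and their summed signal was 8.02 to 8.24 on the FICZ arrays and 6.90 to 7.19 on the TCDD arrays, against 6.71 to 6.91 on the DMSO arrays. The summed signal of the kidney epithelium list was 13.07 to 13.13 with FICZ and 12.80 to 13.22 with TCDD, against 12.81 to 13.13 with DMSO, and that of the mesenchyme list was 13.85 to 13.90 with FICZ and 13.84 to 13.97 with TCDD, against 13.92 to 13.94 with DMSO. The endothelial sum is dominated by pecam1.L, the kidney epithelium sum by krt19 and the mesenchyme sum by vim.L. Within the mesenchyme list the probe sets of pdgfra.L, a receptor of mesenchymal cells, had changes with FICZ against DMSO of -0.47 and -0.59. Groups did not overlap on the second (limma, adjusted p = 0.704 and 0.184), as for 12.2% of all tested probe sets in this comparison. The other tested mesenchyme probe sets changed less, by -0.03 for vim.L, -0.02 for vim.S, -0.12 and -0.12 for col1a1.S and -0.18 for col3a1.S. Separate groups were also seen on a col1a1.S probe set and, in the kidney epithelium list, on pax2.L probe sets with changes of -0.25 and -0.23. Another tested pax2.L probe set changed by 0.12. The rest of that list went both ways, by 0.35 for aqp3.L, 0.18 for krt19.L, 0.09 for krt19.S and 0.04 for pax8.L. For aqp2.S and cldn4.L the changes were -0.06 and -0.37. No tested probe set of the kidney epithelium list passed with FICZ against DMSO. The part of these markers in the igf1r.S result was not tested. A difference in the number of cells of a type and one in RNA per cell cannot be told apart on these arrays.

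The insulin receptor gene insr.L, whose protein can form hybrid receptors with the IGF-1 receptor, did not pass the test. Its log2 signal was 5.02, 4.90 and 4.93 with FICZ, 5.59, 4.66 and 4.47 with TCDD, and 4.98, 4.58 and 5.17 with DMSO. The groups overlapped, and TCDD replicate 1 lay above all other arrays. The change was 0.04 with FICZ (95% interval -0.57 to 0.66; limma, adjusted p = 0.987) and 0.00 with TCDD (-0.62 to 0.61; adjusted p = 0.998), both against DMSO. The group means, 4.95 with FICZ, 4.90 with TCDD and 4.91 with DMSO, lay just above the filter level.

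Of the ligands, igf2.S encodes IGF-2, best known as a growth factor of the embryo, and igf3.L is a further insulin-like growth factor gene known in frogs. The log2 signal of igf2.S was 4.76, 5.41 and 4.66 with FICZ, 4.92, 5.07 and 5.07 with TCDD, and 4.81, 5.23 and 5.06 with DMSO. The groups overlapped fully. The group means of igf2.S, 4.94 with FICZ, 5.02 with TCDD and 5.03 with DMSO, lay just above the filter level, with single arrays below it. The changes against DMSO were -0.09 with FICZ (95% interval -0.60 to 0.42; limma, adjusted p = 0.956) and -0.01 with TCDD (-0.53 to 0.50; adjusted p = 0.998).

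The igf3.L probe set lay under the filter level and was not tested. Its log2 signal was 2.67, 3.22 and 2.75 with FICZ, 2.96, 3.67 and 3.53 with TCDD, and 3.69, 2.84 and 3.73 with DMSO. The FICZ mean was lower than the DMSO mean by a log2 difference of -0.54, but FICZ replicate 2 lay above DMSO replicate 2, so these groups overlapped. At such signals it is unknown whether the probe set read above background.

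The binding protein igfbp1.L encodes IGFBP-1, a secreted protein that in mammals is made mainly by the liver and is repressed by insulin. Its log2 signal was 5.70, 5.36 and 5.78 with FICZ, 5.73, 5.65 and 5.77 with TCDD, and 5.85, 5.45 and 6.02 with DMSO. Replicate 2 was the lowest array of each group, and the groups overlapped. The changes against DMSO were -0.16 with FICZ (95% interval -0.57 to 0.25; limma, adjusted p = 0.874) and -0.06 with TCDD (-0.47 to 0.35; adjusted p = 0.984).

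The gene igfbp5.L, for a binding protein that also attaches to extracellular matrix, lay under the filter level. Its log2 signal was 3.97, 4.25 and 4.12 with FICZ, 4.30, 4.27 and 3.51 with TCDD, and 4.00, 4.20 and 4.30 with DMSO. The means differed from DMSO by -0.05 with FICZ and -0.14 with TCDD, with overlapping groups.

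The adaptor irs1.L, the docking protein that links both receptors to PI3K, was read by 3 probe sets, and none passed the test. Xl.22202.1.S1_at and Xl.22202.1.S1_s_at share 1 record number in their names and Xl.957.1.S1_at carries another. The ending _s marks probes shared by several transcripts.

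On Xl.22202.1.S1_at the log2 signal was 6.87, 6.94 and 7.13 with FICZ, 7.10, 7.04 and 6.98 with TCDD, and 7.18, 7.53 and 7.20 with DMSO. Every FICZ and every TCDD array lay below the lowest DMSO array. Groups that did not overlap, in either direction, were found for 12.2% of all tested probe sets with FICZ against DMSO and for 7.82% with TCDD against DMSO. The change was -0.32 with FICZ (95% interval -0.60 to -0.04; limma, adjusted p = 0.571) and -0.26 with TCDD (-0.55 to 0.02; adjusted p = 0.969).

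The other irs1.L probe sets did not show separate groups against DMSO. On Xl.22202.1.S1_s_at the log2 signal was 7.40, 7.49 and 7.39 with FICZ, 7.03, 7.26 and 7.36 with TCDD, and 7.08, 8.00 and 7.38 with DMSO. Here DMSO replicate 2 alone was high, and the FICZ arrays lay above the TCDD arrays, by 0.21 in the mean (limma, adjusted p = 1), a separation that 10.3% of all tested probe sets showed in that comparison. On Xl.957.1.S1_at the log2 signal was 6.04, 5.36 and 6.21 with FICZ, 5.84, 6.05 and 6.36 with TCDD, and 5.98, 6.58 and 6.32 with DMSO. The low FICZ mean of this probe set came mainly from FICZ replicate 2. Its change with FICZ was -0.43 (95% interval -0.92 to 0.07; limma, adjusted p = 0.722), and that of the S1_s probe set was -0.06 (-0.46 to 0.34; adjusted p = 0.965). With TCDD against DMSO the changes were -0.21 for Xl.957.1.S1_at (95% interval -0.71 to 0.28) and -0.27 for S1_s (-0.67 to 0.13). Each had an adjusted p of 0.969 in limma.

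**Figure D2:**
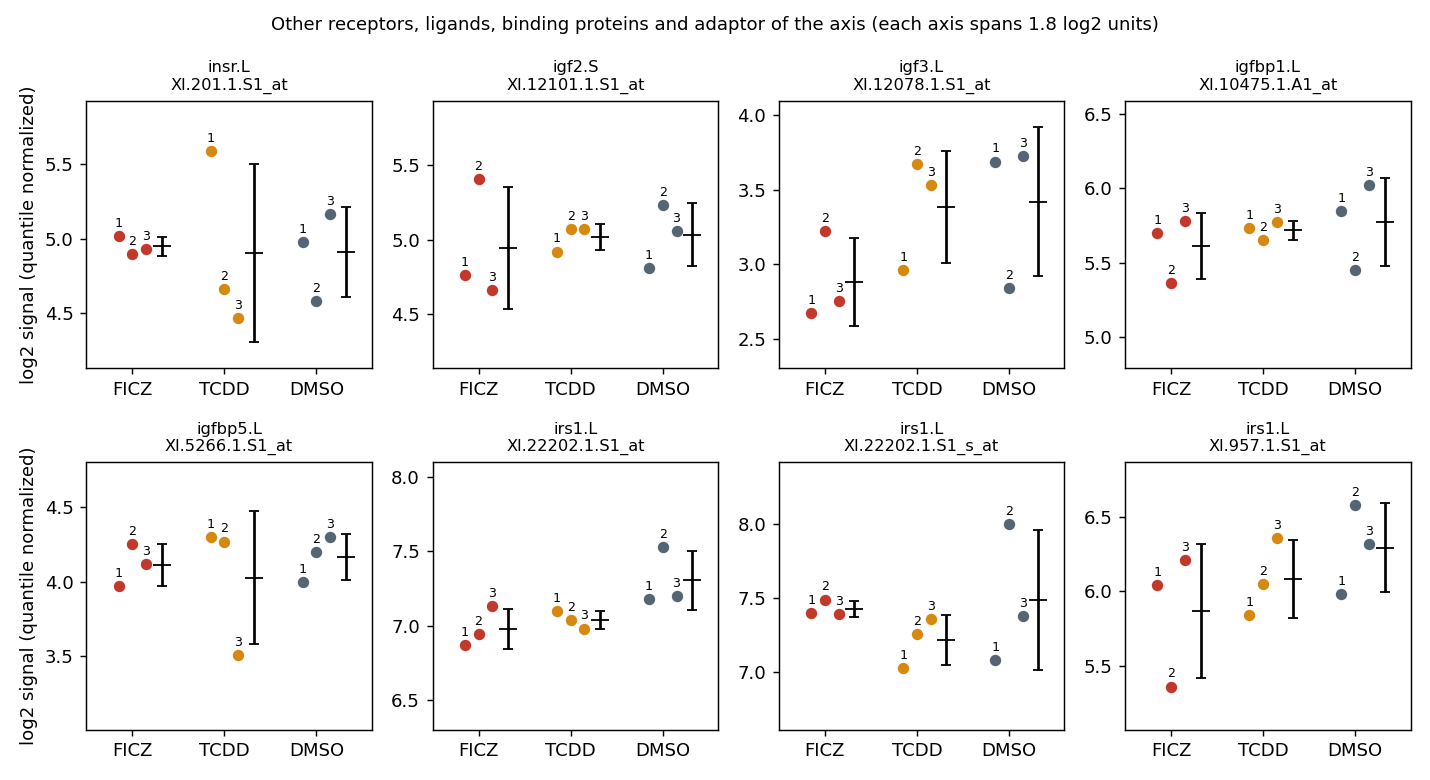
Log2 signal (vertical axes, quantile normalized, each spanning the same range) of the other 8 probe sets of the axis on each array, by treatment. Numbered points are replicates, and bars give the group mean ± SD (n = 3). Groups overlap in all panels except irs1.L Xl.22202.1.S1_at, where both ligands lie below DMSO, and Xl.22202.1.S1_s_at, where FICZ lies above TCDD.

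Outside igf1r.S, 0 of the 6 tested probe sets passed in each of the comparisons of FICZ with DMSO, TCDD with DMSO and FICZ with TCDD, by limma. At an unadjusted p under 0.05 there were 1, 0 and 0 of 6, beside 7.39%, 3.43% and 3.08% of all tested probe sets. Their median log2 changes were -0.13, -0.13 and -0.07, and the median of all tested probe sets was 0.00 in each. With TCDD all 9 tested probe sets of the axis had changes at or below 0, between -0.27 and 0.00, none of which passed. Several of them turned above 0 under other settings, so no direction is read from their signs.

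**Figure D3:**
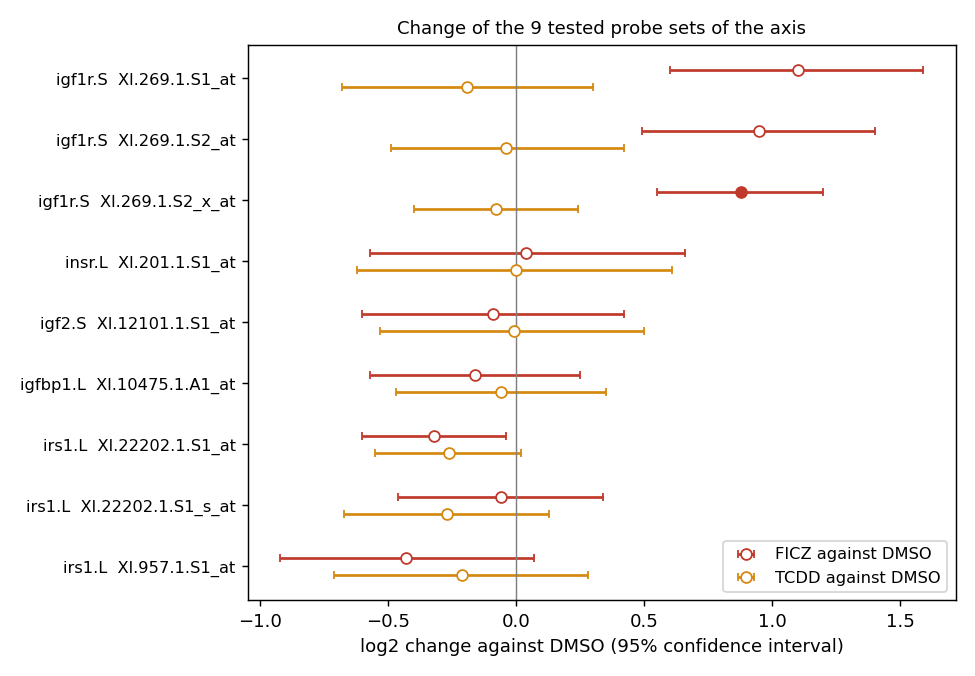
Log2 change against DMSO (horizontal axis, points) with its 95% interval (bars) for the 9 tested probe sets of the axis, with FICZ above TCDD on each line. The filled point marks the probe set that passed the threshold, igf1r.S Xl.269.1.S2_x_at with FICZ at 0.88. The intervals of the 3 igf1r.S probe sets with FICZ lie above 0, and that of irs1.L Xl.22202.1.S1_at lies below it.

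Genes that act downstream of the receptors, or that set how much ligand reaches them, were taken from a list of 84 genes, of which 35 had a named probe set and 31 a tested one, with 54 tested probe sets in all. They include PI3K subunits, AKT, FOXO and GSK3 genes, the mTOR and RAS-MAPK branches, 14-3-3 proteins, phosphatases, suppressors of signalling and proteases. None of the 54 passed in any comparison by limma, with lowest adjusted p values of 0.263 for FICZ against DMSO, 0.969 for TCDD against DMSO and 0.471 for FICZ against TCDD. At an unadjusted p under 0.05 there were 5, 1 and 2 of 54, beside 7.39%, 3.43% and 3.08% of all tested probe sets, so the list's shares lay near the background. Other settings were followed only for the probe sets of the list picked by smallest p. Among these the change of socs3.L passed with the replicate number as a block (limma, adjusted p = 0.0493 for FICZ against DMSO and 0.0176 for FICZ against TCDD). With that block 88 and 28 of all 11618 tested probe sets passed in these comparisons. The changes of slc2a1.L and furin.L passed with array weights for FICZ against TCDD (limma, adjusted p = 0.0139 and 0.038). Under that setting 355 of all tested probe sets passed. With FICZ 27 changes were above 0 and 27 below, with a median of 0.00, and with TCDD 30 were above and 24 below, with a median of 0.01.

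The probe set with the smallest p with FICZ belonged to slc2a1.L, the glucose transporter GLUT1. Its log2 signal was 9.13, 9.13 and 8.98 with FICZ, 9.45, 9.35 and 9.37 with TCDD, and 9.29, 9.43 and 9.51 with DMSO. The FICZ arrays were the lowest, and the change against DMSO was -0.33 (95% interval -0.53 to -0.12; limma, adjusted p = 0.263). Another probe set of slc2a1.L had a change of -0.03 (limma, adjusted p = 0.968).

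Of the suppressors, socs3.L, which encodes a cytokine-induced inhibitor that also acts on the insulin receptor, had log2 signals of 10.49, 10.48 and 10.78 with FICZ, 9.83, 8.38 and 9.83 with TCDD, and 9.56, 8.99 and 10.34 with DMSO. FICZ arrays lay above the others, but the TCDD and DMSO arrays were widely spread. The change with FICZ against DMSO was 0.96 (95% interval 0.21 to 1.70; limma, adjusted p = 0.462), and against TCDD it was 1.24 (0.49 to 1.98; adjusted p = 0.471). The ubiquitin ligase gene cbl.L, whose protein marks activated receptors for breakdown, had changes of -0.34 with FICZ (limma, adjusted p = 0.386) and -0.25 with TCDD (adjusted p = 0.969) against DMSO. The protease gene furin.L, whose protein cleaves the receptor precursors, had a change of -0.23 with FICZ on the probe set with the smallest p of its 4 (limma, adjusted p = 0.652). With TCDD the smallest p values other than that of cbl.L belonged to the MAP kinase kinase gene map2k1.L (0.20) and the 14-3-3 genes ywhab.L (0.28) and ywhae.S (0.10), each with an adjusted p of 0.969 in limma.

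**Figure D4:**
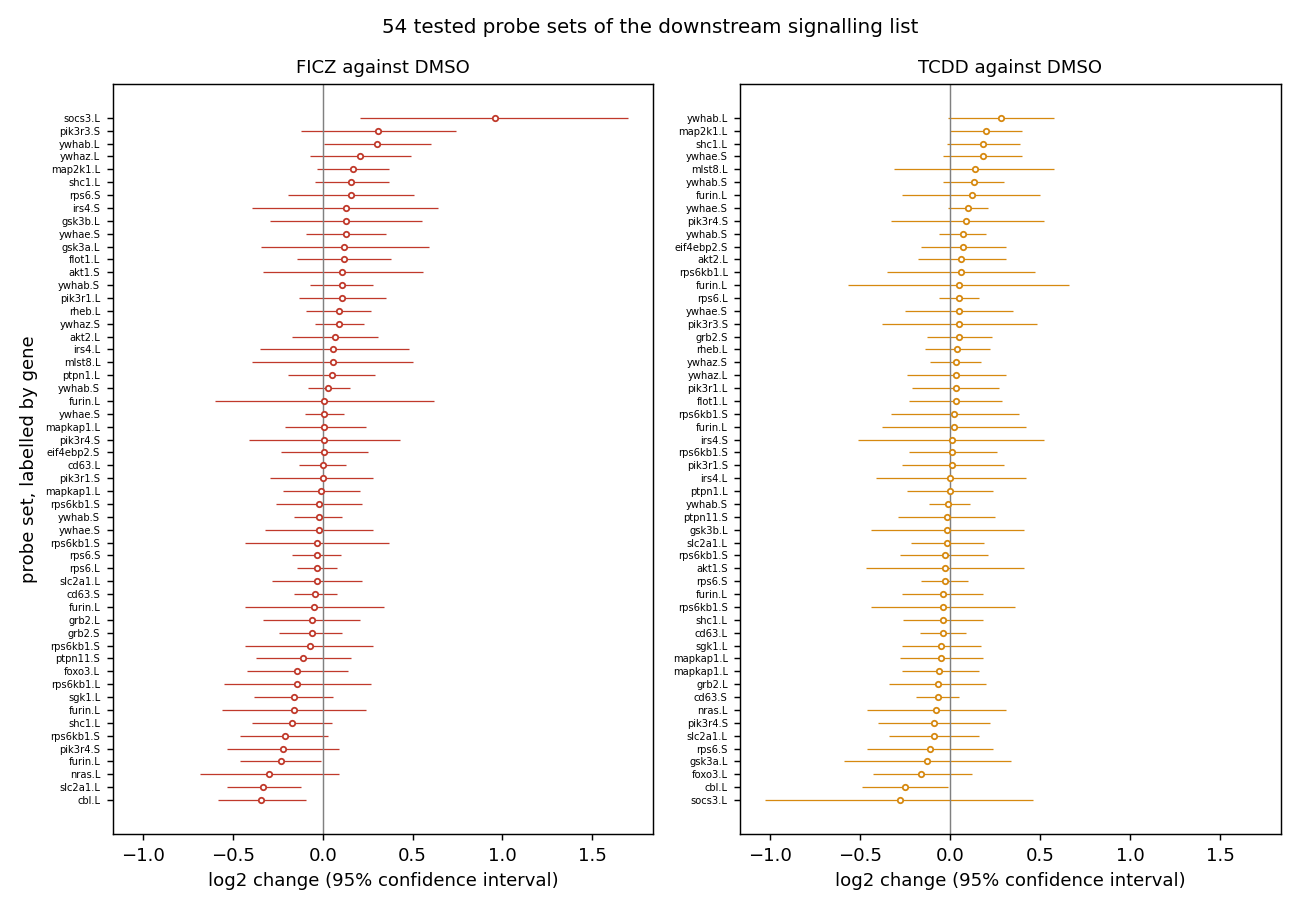
Log2 change (horizontal axes, points) with its 95% interval (bars) of the 54 tested probe sets of the downstream list with FICZ (left) and with TCDD (right), both against DMSO and each sorted by size. Rows are probe sets labelled by gene, and some genes have several. None passed the threshold in either comparison, and socs3.L, at 0.96 with FICZ, lies farthest from 0.

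The genes whose signal followed that of igf1r.S most closely were sought by the Pearson correlation over the 9 arrays between each of 7399 other named probe sets and the mean of the igf1r.S probe sets. The 5 highest were nr3c1.L (0.98), the glucocorticoid receptor, slc4a11.L (0.97), a membrane transporter, XB5932119.L (0.95), pacs2.L (0.94), a sorting protein at contacts of endoplasmic reticulum and mitochondria, and capn1.L (0.93), a calcium-dependent protease. Over all compared probe sets the median of this correlation was -0.03 and its 99th percentile 0.77. With the group means taken out, the correlations of the 5 were 0.90, 0.87, 0.84, 0.74 and 0.78, for which no values over all probe sets were computed. All points share the same arrays and the same FICZ difference, so these values are a description.

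The log2 signal of nr3c1.L was 8.18, 8.41 and 8.14 with FICZ, 7.56, 7.52 and 7.59 with TCDD, and 7.47, 7.78 and 7.45 with DMSO. As with the mean of the igf1r.S probe sets, FICZ replicate 2 was the highest array and DMSO replicate 2 the highest of its group. The changes with FICZ against DMSO were 0.68 for nr3c1.L, 0.61 for pacs2.L, 0.49 for slc4a11.L, 0.33 for capn1.L and 0.23 for XB5932119.L, all below the 0.88 to 1.10 of igf1r.S. Those with TCDD lay between -0.15 and 0.06.

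**Figure D5:**
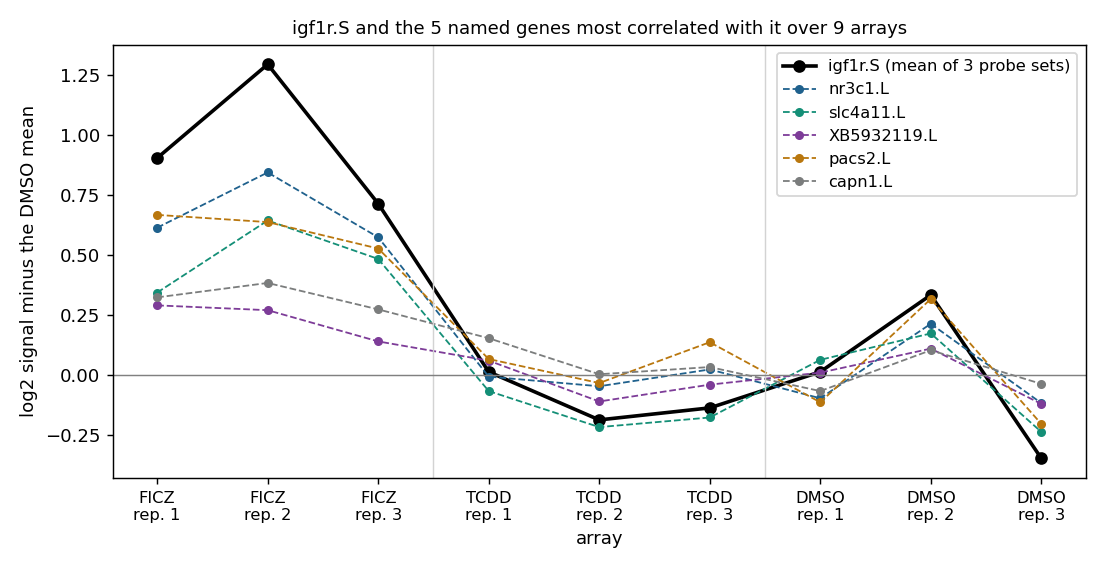
Log2 signal minus the DMSO mean (vertical axis) on each of the 9 arrays (horizontal axis) for igf1r.S, as the mean of its 3 probe sets, and the 5 named genes most correlated with it. Lines join the arrays of 1 gene and imply no order among replicates. All 6 lie highest on the FICZ arrays, and on the DMSO arrays all 6 are highest on replicate 2.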

How the data were processed

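Total RNA of 9 cultures was hybridised to 1-colour Affymetrix Xenopus arrays, 3 each for FICZ, TCDD and DMSO. The deposited signals were taken as log2, judging by their range, and stop at 0, where 20 to 52 probe sets an array lie. GCOS, the Affymetrix scanning software, is the tool in the submitters' processing notes, with its version, algorithm and scaling not given in the sources used here. Detection calls were not used here. The DMSO titles carry a tag, CH, of unknown meaning, and the FICZ numbers differ between titles and descriptions; those of the titles were used.

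Of 15611 probe sets, 120 controls were left out. Of the other 15491, 9304 carried 1 gene symbol in the platform annotation, 195 several and 5992 none, and 9227 matched the RefSeq gene table (assembly Xenopus_laevis_v10.1), used for names only. After quantile normalization, those whose mean was below the 25th percentile (log2 4.88) were dropped. The remaining 11618 were fitted over all 9 arrays with limma 3.58.1 in R 4.3.3, using lmFit and eBayes with trend=TRUE, with 6 residual and 7.82 prior degrees of freedom. Two-sided p values were corrected by the Benjamini-Hochberg method across these 11618, the threshold was 0.05 and intervals are 95%. The smallest p an exact permutation test of 3 against 3 arrays can give is 0.1, so the test relies on pooling variance over probe sets, whose median SD within groups was 0.17. The procedure was also run on simulated data with independent normal errors. These held no array that stood apart, as DMSO replicate 2 and FICZ replicate 2 did here, so the run does not cover that case.

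The members, gene lists and rules were chosen with earlier results of these data known. All axis members are named. From the downstream list, up to 4 probe sets by smallest p in each comparison are named, and from the likeness search the 5 highest correlations. Alternatives were other normalizations, filters and variance settings, array weights, fits on 2 groups, the replicate number as a block and each array left out. Correlations of deviations ran from -0.27 to 0.48 between same-numbered arrays and from -0.36 to 0.25 between arrays of unlike number. Same-numbered TCDD and DMSO arrays gave 0.48, 0.27 and 0.00, and same-numbered pairs with a FICZ array gave -0.27 to 0.00. The FICZ numbers are themselves uncertain, so whether the numbers pair the arrays was not settled, and the main fit used no block. Promoter and protein sequences and probe positions were not used here. Plots were made in Python 3.11.15 with matplotlib 3.10.9.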

Additional observations from a re-analysis of the deposited data

How the results depend on the processing

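Over 19 alternatives the rise of igf1r.S with FICZ against DMSO kept its sign on all 3 probe sets, and its adjusted p in limma did not keep its side of the threshold. For S2_x the adjusted p lay between 8.8e-04 and 0.114 and passed in 13 alternatives. The log2 change of S2_x did not pass without the variance trend (0.88, adjusted p = 0.0652 in limma) or with replicate 2 of DMSO and of FICZ both left out, an alternative chosen after seeing the data (0.79, adjusted p = 0.0603), and it was 0.72 to 1.06 with single arrays left out. S1 passed in 5 alternatives, with a change of 1.12 under median centring, 1.23 with array weights and 1.19 with both arrays left out, and 0.88 to 1.40 with single arrays left out. S2 passed in 3, with 0.97 under median centring and 0.78 with array weights, and was 0.64 to 1.12 with single arrays left out. With the replicate number as a block the changes were 1.10 for S1, 0.95 for S2 and 0.88 for S2_x, all past the threshold. Their adjusted p values in limma were 0.0054, 0.0355 and 0.00676, so 3 axis probe sets passed in place of 1. Whether these numbers pair the arrays was not settled. With that block, over all probe sets, 88 passed for FICZ against DMSO, 4 for TCDD against DMSO and 28 for FICZ against TCDD. Uncalled changes with TCDD against DMSO turned sign in 2 alternatives for S1 and in 4 for S2.

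The count of axis probe sets that passed with FICZ against DMSO, 1 as reported, was 3 under median centring and with array weights, 0 without the variance trend, and 0 to 2 with single arrays left out. It was 0 with any of FICZ replicates 1 and 2 and DMSO replicates 1 and 3 left out, and 2 without DMSO replicate 2. For TCDD against DMSO it was 0 in every alternative run. For FICZ against TCDD no count is given for the whole axis, because this contrast chose igf1r.S. Outside igf1r.S, 0 of the 6 tested probe sets passed in it as reported. Over all probe sets, 70 passed for FICZ against DMSO, 40 without the variance trend, 154 with array weights (114 higher, 40 lower), 43 with both arrays left out, and 26 to 90 with single arrays left out. For TCDD against DMSO 3 passed, 1 without the trend, 22 with array weights and 3 to 7 with single arrays left out. For FICZ against TCDD 24 passed, 8 without the trend, 355 with array weights (223 higher, 132 lower), 40 on the arrays of the 2 groups alone, and 11 to 42 with single arrays left out. The cause of these differences was not tested. For insr.L, igf2.S, igfbp1.L and irs1.L Xl.957.1.S1_at, some alternatives give no value because the filter removes the probe set.

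The small number of arrays limits the precision, and array weights and the choice of arrays both moved the counts. Dim probe sets (igf3.L, igfbp5.L) cannot be told from background without detection calls. The tested probe sets of igf2.S and insr.L lay just above the filter level, and no detection calls were used for them either.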

Other observations

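Several probe sets have names close to the axis but fall outside its symbol rule, and they were chosen for mention after their values were seen. The insulin genes ins.L and ins.S had log2 changes of -0.11 and -0.12 with FICZ against DMSO and of -0.10 and -0.05 with TCDD against DMSO. The gene igf2bp3.S, whose product binds igf2 messenger RNA, had changes of -0.05 and -0.20 on its 2 probe sets with FICZ and of -0.18 and 0.08 with TCDD. The adaptor genes irs4.L and irs4.S, which are also counted in the downstream list above, had changes of 0.06 and 0.13 with FICZ and of 0.00 and 0.01 with TCDD. None of them passed the threshold of 0.05 in limma. The probe set of kazald1.S, a gene related to the IGF binding proteins, lay under the filter at mean log2 signals of 3.92 with FICZ and 3.91 with TCDD, against 3.95 with DMSO.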
